A study of Homo sapiens with 8 samples.

Results

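This report describes 10 enzymes that make amino acids, charge the folate pool or feed both with carbon, in the human acute myeloid leukaemia line MOLM-14. They are CTH and CBS (transsulfuration), PHGDH, PSAT1 and PSPH (serine synthesis), SHMT2 and MTHFD2 (mitochondrial folate metabolism), ASNS (asparagine), PYCR1 (proline) and PCK2 (phosphoenolpyruvate). They were chosen by gene symbol from the platform annotation, and the list was drawn up with earlier results of the same comparison known. Of the 10, 9 were measured, each by a single probe set, among 14884 genes in all. MTHFD2 had no named probe set and is given as not measured.

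MOLM-14 is a monocytic line with a KMT2A-MLLT3 fusion and an activated FLT3 receptor. Cells carried a doxycycline-inducible short hairpin RNA that targets ENTPD1 (shCD39, 4 arrays) or a scrambled one (shCTRL, 4 arrays). Both groups had doxycycline for 72 h, so the drug is shared by the controls. ENTPD1 encodes CD39, a surface enzyme that degrades extracellular nucleotides. No other genotype or agent is given, and the extraction protocol speaks of clones without saying how many. Each array is labelled as a technical replicate, so every spread and p-value below may hold technical variation only. The series asks which genes follow CD39.

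The enzymes belong to a set that cells raise when amino acids run short. The kinase GCN2 then phosphorylates the translation factor eIF2, the transcription factor ATF4 is translated more, and ATF4 binds composite C/EBP-ATF elements near genes of amino acid synthesis, transport and charging. The serine route takes 3-phosphoglycerate from glycolysis, and serine then supplies glycine, folate-bound carbon units and, through CBS and CTH, cysteine.

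The core of the C/EBP-ATF element was searched as TGATGNAA on both strands (TTNCATCA on the other strand) in RefSeq promoters of build GRCh38.p14, which span 250 bases before to 50 bases after a start. Of the 10 enzymes, 7 had a promoter in that table (10 windows), and 3 did not (PSPH, SHMT2 and PYCR1). ASNS alone among the 7 held the core, with its first base at position -68 from one of its starts. Of all genes listed there, 4.46% held it. The 100 bases before the start are shown for the members with the largest differences that have a single start in the table, and for the ASNS start that holds the core, because ASNS is the textbook case of this element. Capitals mark the core, and all runs are on the gene's strand, 5′ to 3′.
ASNS, chr7:97872409-97872508, minus strand: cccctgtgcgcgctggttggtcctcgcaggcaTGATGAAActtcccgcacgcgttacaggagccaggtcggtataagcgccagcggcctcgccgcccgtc
CTH, chr1:70411168-70411267, plus strand: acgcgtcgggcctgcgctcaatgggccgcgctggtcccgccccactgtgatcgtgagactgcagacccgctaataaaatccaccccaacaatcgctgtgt
PSAT1, chr9:78297025-78297124, plus strand: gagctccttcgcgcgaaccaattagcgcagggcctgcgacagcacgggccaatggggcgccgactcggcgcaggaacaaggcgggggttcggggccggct
PHGDH, chr1:119711834-119711933, plus strand: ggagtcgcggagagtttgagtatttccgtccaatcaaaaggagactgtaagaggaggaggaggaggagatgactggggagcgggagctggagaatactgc
The CTH, PSAT1 and PHGDH windows held no match, which says only that these letters are not in them. In the wider pathway, 1 of 49 genes with a promoter in the table held the core, the mitochondrial folate enzyme MTHFD1L, shown here with 30 bases around it.
MTHFD1L, chr6:150866346-150866375, plus strand: gccgccggctcTGATGCAAtcgcgccgggc

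Values are log2 expression after RMA normalization, a unit in which a step of 1 is a 2-fold change, and each array's median lay between 3.13 and 3.17. Arrays correlated at 0.974 to 0.987 over 53617 probe sets. Their number, and not a read depth, limits the precision of the array values, and how many separate cultures they represent is not known. ENTPD1 read 3.34 ± 0.54 in shCTRL and 2.56 ± 0.35 in shCD39 (mean ± SD, n = 4 each), the latter below the median probe set at 3.14. The log2 fold change of ENTPD1 was -0.79 (SE 0.25, limma adjusted p = 0.178), so the knockdown itself was not called. ENTPD1 ran from 2.14 to 2.95 over the shCD39 arrays and from 2.88 to 4.12 over the shCTRL arrays, so the groups overlapped. Of the myeloid markers 6 of 10 were measured, all above that median, with LYZ at 10.04 ± 0.58 and FLT3 at 9.38 ± 0.32 in shCD39. Of the 6, 3 had higher means in shCD39. LYZ and CSF1R, genes of mature monocytes, had log2 fold changes of 1.07 and 1.36 (limma adjusted p = 0.0926 and 0.0849), and SPI1 0.13 (adjusted p = 0.724). FLT3, MEIS1 and MPO were lower, at -0.29, -0.28 and -0.40 (limma adjusted p = 0.419, 0.436 and 0.699). The mean level of the 6 spanned 7.47 to 7.98 in shCD39 and 7.22 to 7.51 in shCTRL. Among markers of other cells, 3 of 5 for T and NK cells, 1 of 4 for B cells, 2 of 4 for erythroid cells and 3 of 5 for fibroblasts and epithelium were measured. Their mean levels were 4.15 to 4.70 against 4.12 to 4.41, 6.46 to 6.62 against 6.68 to 6.999, 2.99 to 3.34 against 2.82 to 3.10, and 3.76 to 4.00 against 3.55 to 3.77. None was called by limma, and CD3E, HBB and COL1A1 were not measured. The part of these markers in what follows was not tested. In such bulk RNA, fewer cells that express a gene and less of its RNA in each cell cannot be told apart.

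All 9 measured enzymes had lower means in shCD39 than in shCTRL, against 48% of all genes. Their log2 fold changes ran from -2.10 for CTH to -0.53 for PYCR1, with a median of -1.10 beside 0.0093 over all genes. CTH, ASNS, PSAT1, CBS and PHGDH (5 of 9) were more than 2-fold lower, and PCK2, SHMT2, PSPH and PYCR1 (4 of 9) less than that. The enzymes were put together with this comparison in view, so these differences are a description, and no p-value is given for a member. The counts of members in the fit over all genes describe where they stand in it; they restate the choice of members and support nothing. By limma with Benjamini-Hochberg adjustment over all genes, 0 of the 9 were past an adjusted p of 0.05, where 0.047% of all genes were called lower. At an unadjusted p under 0.05 the count was 9, with 8.13% of all genes lower, and nothing is read from the pair since the members were picked on this contrast. Without shCD39 array 4 limma called 8 (all but PSPH; 2.1% of genes were called lower), without shCTRL array 4 it called CBS and SHMT2 (0.228%), and without any other single array 0. With both arrays numbered 4 left out it called 8 (1.85%), and with array weights 5 (CTH, CBS, PHGDH, PSAT1 and SHMT2; 0.585%). The arrays numbered 4 are therefore followed through each enzyme below.

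**Figure D1:**
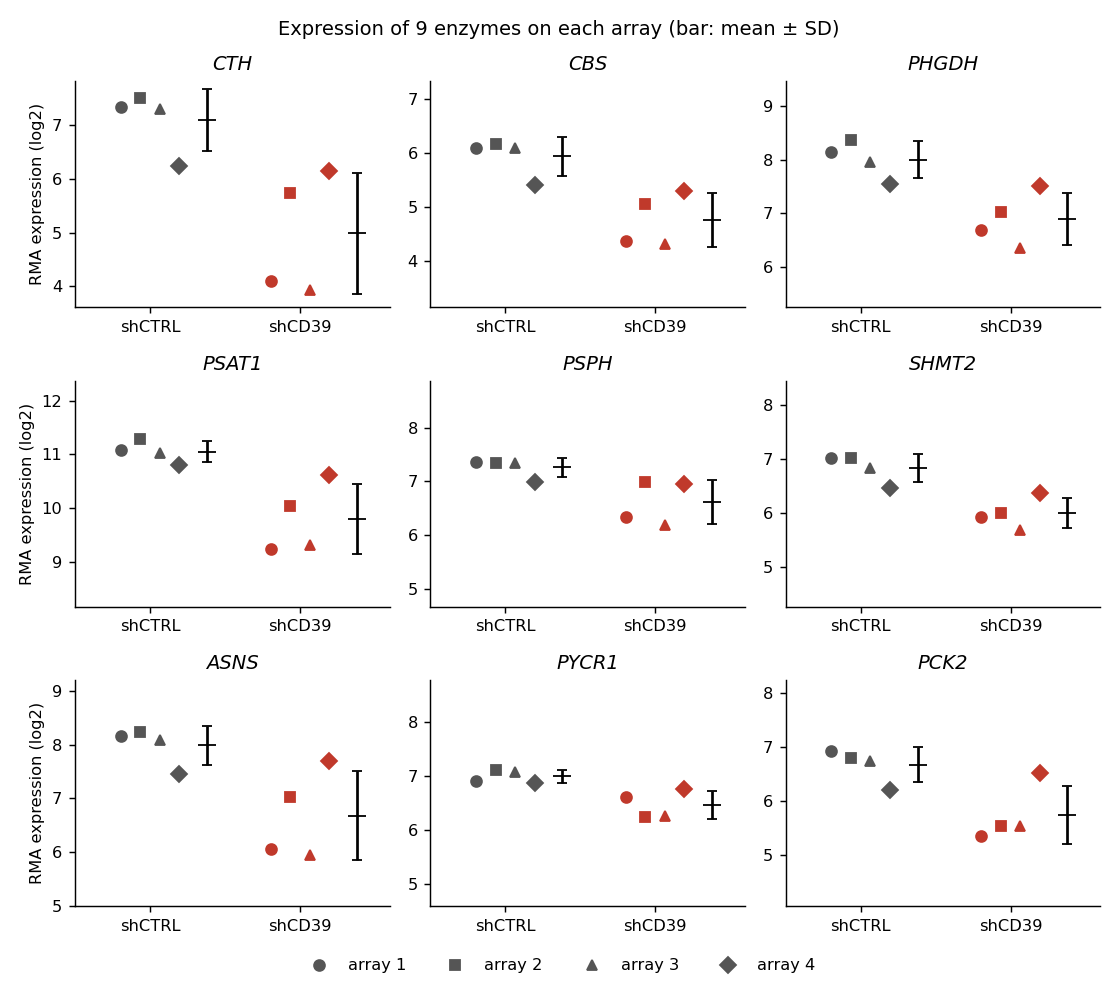
RMA expression (log2) of the 9 measured enzymes on each of the 8 arrays, grey for shCTRL and red for shCD39, with the array number as the symbol and the mean ± SD as a bar; every panel spans the same number of log2 units. In each panel shCTRL array 4 is the lowest control, and in 8 of 9 shCD39 array 4 is the highest knockdown array.

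CTH (cystathionine gamma-lyase) performs the last step of cysteine synthesis from methionine. It read 7.34, 7.50, 7.29 and 6.23 on shCTRL arrays 1 to 4, and 4.11, 5.74, 3.94 and 6.15 on shCD39 arrays 1 to 4. The groups stood apart by 0.08, with both arrays numbered 4 at the border, while shCD39 arrays 1 and 3 lay more than 3 log2 units below the highest control. The mean difference was 4.30-fold (log2 fold change -2.10, SE 0.46), between 7.09 ± 0.58 and 4.98 ± 1.13 (mean ± SD, n = 4 each). It was -2.49 without shCD39 array 4 and -2.39 without shCTRL array 4.

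CBS (cystathionine beta-synthase), the enzyme before CTH, joins serine to homocysteine. Control arrays 1 to 4 read 6.09, 6.17, 6.10 and 5.41, and the knockdown arrays 4.37, 5.05, 4.31 and 5.31. As for CTH, array 4 was the lowest control and the highest knockdown array, and the groups stood apart by 0.10. Means of 5.94 ± 0.36 and 4.76 ± 0.50 gave a 2.27-fold difference (log2 fold change -1.18, SE 0.24).

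PHGDH, PSAT1 and PSPH carry 3-phosphoglycerate to serine in that order. PHGDH, the committing dehydrogenase, read 8.14, 8.36, 7.96 and 7.55 on shCTRL arrays 1 to 4 and 6.69, 7.03, 6.36 and 7.50 on shCD39 arrays 1 to 4. Its groups were separated by 0.04 at the arrays numbered 4, and its means differed 2.15-fold (log2 fold change -1.10, SE 0.23). PSAT1, the aminotransferase of the middle step, read 11.08, 11.29, 11.03 and 10.80 in shCTRL and 9.25, 10.03, 9.32 and 10.61 in shCD39. This was the widest separation of any member at 0.19, with a control SD of 0.20 against 0.64 in shCD39, and the fold difference was 2.37 (log2 fold change -1.25, SE 0.26). PSPH, the phosphatase that releases serine, read 7.36, 7.34, 7.35 and 6.99 in shCTRL and 6.34, 6.99, 6.18 and 6.94 in shCD39. The PSPH groups met, with shCD39 array 2 above shCTRL array 4 by 0.0081, and the 1.56-fold difference (log2 fold change -0.65, SE 0.19) was the second smallest. PSPH has a closely related pseudogene, and the specificity of its probe set was not tested.

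SHMT2 splits serine into glycine and a folate-bound carbon unit inside mitochondria. It read 7.02, 7.01, 6.84 and 6.46 on shCTRL arrays 1 to 4 and 5.93, 5.99, 5.69 and 6.36 on shCD39 arrays 1 to 4. The groups were 0.10 apart, and SHMT2 was the member whose SD was most alike in shCD39 and shCTRL, at 0.28 and 0.26. The difference was 1.79-fold (log2 fold change -0.84, SE 0.17), and with either array numbered 4 left out it was -0.97.

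ASNS moves an amide group from glutamine to aspartate to make asparagine. Control values were 8.16, 8.24, 8.09 and 7.45, and knockdown values 6.06, 7.02, 5.95 and 7.69. Here shCD39 array 4 exceeded shCTRL array 4 by 0.24, although shCD39 arrays 1 to 3 lay below every control. The means differed 2.47-fold (log2 fold change -1.31, SE 0.34), and the difference was -1.64 without shCD39 array 4 and -1.48 without shCTRL array 4.

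PYCR1 reduces pyrroline-5-carboxylate to proline in mitochondria. It read 6.92, 7.12, 7.09 and 6.87 in shCTRL and 6.61, 6.24, 6.26 and 6.76 in shCD39. PYCR1 was the exception in order: shCD39 array 2 was its lowest and array 1 its second highest, whereas in the other 8 members arrays 2 and 4 both lay above arrays 1 and 3. Its groups stood 0.10 apart, with means 1.44-fold apart (log2 fold change -0.53, SE 0.14), the smallest difference of the 9.

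PCK2, the mitochondrial phosphoenolpyruvate carboxykinase, turns oxaloacetate into phosphoenolpyruvate, from which 3-phosphoglycerate can be rebuilt. It read 6.92, 6.80, 6.74 and 6.20 in shCTRL and 5.35, 5.54, 5.53 and 6.52 in shCD39. Its knockdown arrays 1 to 3 lay close together, and array 4 stood above shCTRL array 4 by 0.32, the widest overlap among the members. The difference was 1.91-fold (log2 fold change -0.93, SE 0.24), or -1.19 without shCD39 array 4.

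**Figure D2:**
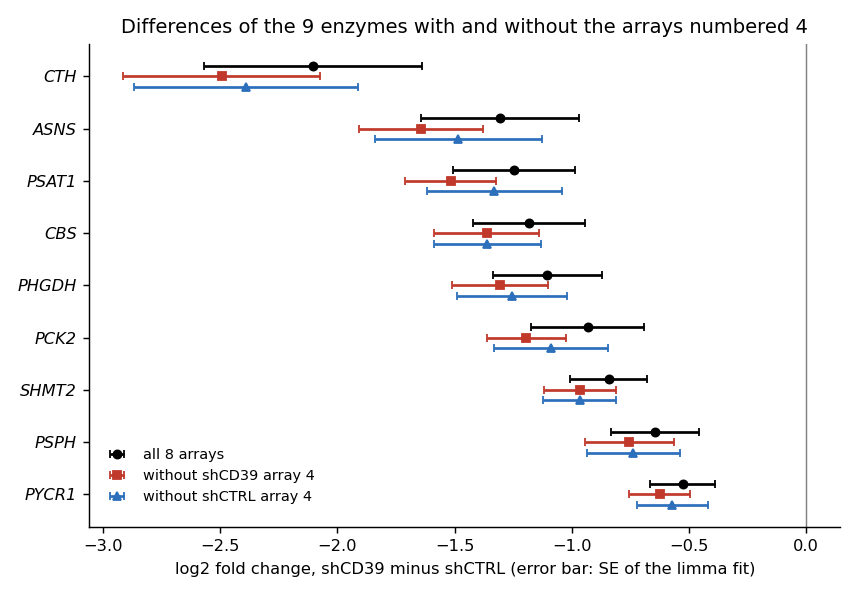
Log2 fold change (shCD39 minus shCTRL) with the SE of the limma fit for the 9 enzymes, over all 8 arrays and without either array numbered 4. CTH lies farthest from 0 at -2.10 and PYCR1 nearest at -0.53. Every estimate moves away from 0 when either array numbered 4 is left out. That direction was fixed beforehand, since shCTRL array 4 is the lowest control and shCD39 array 4 lies above the shCD39 mean for each enzyme.

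Across the set, the groups stood apart in 6 of 9 members and overlapped in 3 (PSPH, ASNS and PCK2), while 4.23% of all genes stood apart with shCD39 lower. shCTRL array 4 was the lowest control for all 9. shCD39 array 4 was the highest knockdown array for 8, and shCD39 array 3 the lowest for 6. Measured from the control means, the median member stood at -1.31, -0.96, -1.63 and -0.44 on shCD39 arrays 1 to 4, and at 0.15, 0.23, 0.09 and -0.46 on shCTRL arrays 1 to 4. So the 2 arrays numbered 4 had nearly the same median level of these enzymes, although their labels differ, and the reason was not tested. The SD was larger in shCD39 than in shCTRL for all 9 members, a difference in spread that was not tested. How many of all genes share it was not counted. Array weights from all genes, lower where an array is more variable, were 0.63 to 0.95 in shCD39 and 0.93 to 1.44 in shCTRL. The count is therefore not read as a trait of the enzymes.

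The enzymes also varied together once the difference between the groups was taken away. Pearson's r of the deviations from the group means, over 8 arrays, ran from 0.27 (PSPH with PYCR1) to 0.99 (CTH with CBS) in the 36 pairs, with a median of 0.87. The median over all pairs of the 10152 genes above the median probe set was 0.0041, and 1.02% of those pairs reached the members' median. PYCR1 set the low end, with r from 0.27 to 0.66 to the other 8, and the 28 pairs without it had r of at least 0.66. CTH moved most: for each log2 unit by which the mean of the other members deviated within a group, CTH deviated by 2.32, ASNS by 1.58, PSAT1 by 1.07, SHMT2 by 0.55 and PYCR1 by 0.22. Points on the same array share their RNA and normalization. The mean r over the pairs was 0.80, 0.66 without shCD39 array 4 and 0.48 without both arrays numbered 4.

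**Figure D3:**
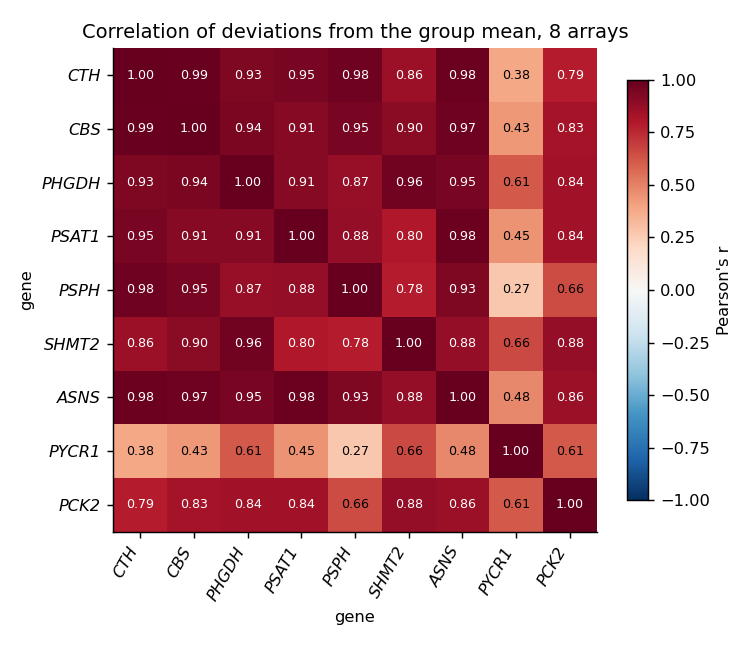
Pearson's r between pairs of enzymes, computed over the 8 arrays from deviations from each group's mean, with the colour scale from -1 to 1. PYCR1 has the palest row, between 0.27 and 0.66, and CTH with CBS the strongest pair at 0.99.

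Several members have a relative that does the same reaction in another compartment or from another gene, and these were compared side by side. SHMT1, the cytosolic counterpart of SHMT2, had means of 6.07 ± 0.32 in shCTRL and 5.59 ± 0.33 in shCD39 (log2 fold change -0.48, SE 0.19, limma adjusted p = 0.26), beside -0.84 for SHMT2. PCK1, the cytosolic counterpart of PCK2, had -0.12 (SE 0.17, adjusted p = 0.809) beside -0.93, but its level of 2.67 in shCTRL was below the median probe set. PYCR3, a cytosolic relative of PYCR1, read 5.24 ± 0.08 and 5.09 ± 0.10 and had -0.15 (SE 0.10, adjusted p = 0.552) beside -0.53. MTHFD2L, the relative of the unmeasured MTHFD2, had -0.20 (SE 0.21, adjusted p = 0.727), with shCD39 array 1 at 2.81 below the others. MTHFD1 was not measured. Whether a pair differs was not tested, since the member of each pair was chosen on this comparison.

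The rest of the pathways was covered by 7 lists of 124 genes, of which 62 were measured. Of these 62, 39 had lower and 23 higher means in shCD39, with a median of -0.12 beside 0.0093 over all genes. By limma over all genes 0 passed in either direction, against 0.0941% of all genes, and at an unadjusted p under 0.05 there were 17 lower and 2 higher, against 8.13% and 6.54% of all genes. Without shCD39 array 4, 6 were called lower (2.1% of genes) and 1 higher (0.746%), and without shCTRL array 4, 5 were called lower (0.228%). Without any other single array 0 were called. The lists were written with earlier results of these data known.

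Of 16 measured genes of serine, glycine and folate metabolism, 13 had lower means, the median was -0.21 and 0 passed the threshold. MTHFD1L, which releases formate from mitochondria, read 8.63, 8.39, 8.63 and 8.24 in shCTRL and 7.63, 7.67, 7.57 and 8.19 in shCD39 (log2 fold change -0.71, SE 0.15, limma adjusted p = 0.0877). MTR, methionine synthase, had -0.69 (SE 0.15, adjusted p = 0.0933), from 8.32 ± 0.05 to 7.63 ± 0.34. In MTHFD1L and MTR the groups did not overlap, and without shCD39 array 4 limma called each (adjusted p = 0.00952 and 0.00774). Without shCTRL array 4 limma called neither (adjusted p = 0.0726 and 0.111). Array 4 was the highest knockdown array and the lowest control for each, so a larger difference was fixed beforehand.

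The methionine and cysteine genes beyond CTH and CBS had a median of -0.07, with 6 of 10 lower and 0 called. ETHE1, which oxidises sulfide products in mitochondria, had -0.40 (SE 0.12, limma adjusted p = 0.17), and the sulfurtransferase TST 0.40 (SE 0.19, adjusted p = 0.351), with overlapping groups in each. Among genes of glutamine, glutamate, aspartate and asparagine, 2 of 9 were lower and 7 higher, with a median of 0.05 and 0 called. ASS1, which joins citrulline to aspartate, had the largest difference of the list, with 11.18 ± 0.27 in shCTRL and 10.43 ± 0.30 in shCD39 (log2 fold change -0.75, SE 0.17, limma adjusted p = 0.0939). For ASS1 the limma adjusted p was 0.0316 without shCD39 array 4 and 0.0546 without shCTRL array 4. Here too array 4 was the highest knockdown array and the lowest control, which fixed a larger difference beforehand. NAGS, which makes the activator of the urea cycle, had 0.25 (SE 0.11, adjusted p = 0.309).

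Proline, ornithine and polyamine genes had a median of -0.14, with 6 of 10 lower and 0 called. SAT1, the acetylase that starts polyamine breakdown, differed the other way: 5.22, 5.08, 5.03 and 4.91 in shCTRL and 6.13, 5.96, 6.36 and 5.44 in shCD39, with no overlap (log2 fold change 0.91, SE 0.17, limma adjusted p = 0.0783). For SAT1 the limma adjusted p was 0.00497 without shCD39 array 4 and 0.0807 without shCTRL array 4. With shCD39 array 4 the lowest of its group, a larger difference without it was fixed beforehand. SRM, spermidine synthase, had -0.33 (SE 0.15, adjusted p = 0.338). Around PCK2, genes of phosphoenolpyruvate, pyruvate and malate had a median of -0.03 over 5 genes, with PGAM1, a mutase of glycolysis, at 0.25 (SE 0.15, adjusted p = 0.499). None of the 14 listed transporters was measured.

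**Figure D4:**
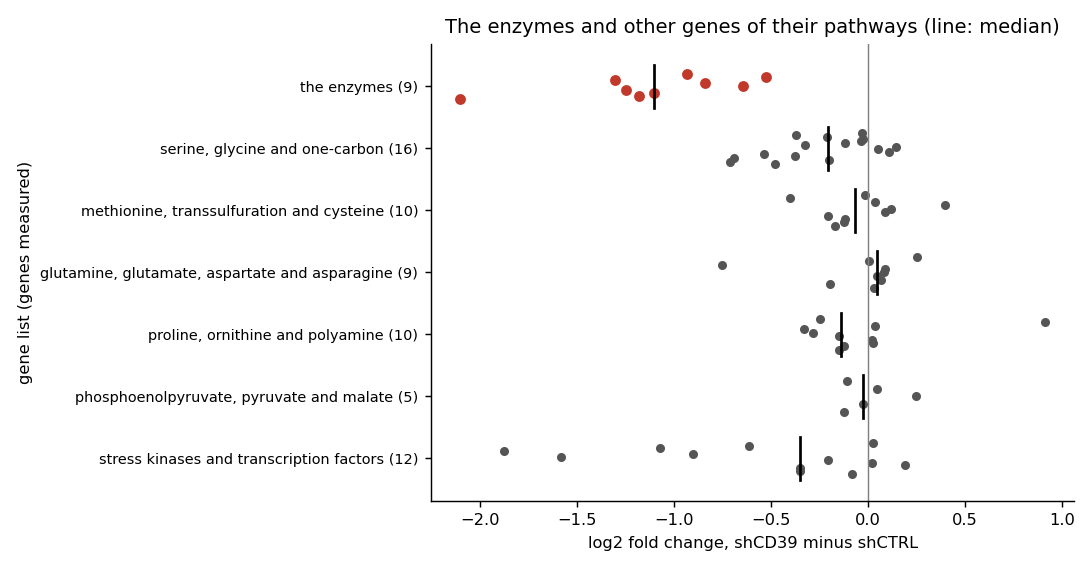
Log2 fold change (shCD39 minus shCTRL) of the 9 enzymes (red) and of the other measured genes of 6 pathway lists (grey), 1 point per gene, with the median of each as a line. The enzymes' median is -1.10, and those of the other lists lie between -0.35 and 0.05.

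The list of stress kinases, transcription factors and genes linked to them had 12 measured genes. Of these, 9 had lower means, the median was -0.35 and 0 were called. The list is not confined to genes that act upstream of the enzymes. TRIB3, a pseudokinase induced by ATF4 that feeds back on it, read 8.35, 7.997, 8.42 and 6.34 in shCTRL and 5.94, 5.86, 5.51 and 6.29 in shCD39 (log2 fold change -1.88, SE 0.38, limma adjusted p = 0.0805). ATF5, a transcription factor related to ATF4, read 7.47, 6.75, 7.56 and 5.40 in shCTRL and 5.20, 5.22, 5.06 and 5.37 in shCD39 (-1.58, SE 0.37, adjusted p = 0.101). In both, shCTRL array 4 lay beside the knockdown arrays and far from the other controls. Without shCTRL array 4 limma called TRIB3 (adjusted p = 0.00167) and ATF5 (adjusted p = 0.00407), and without shCD39 array 4 TRIB3 (adjusted p = 0.0339). A larger difference was fixed beforehand, since array 4 was the lowest control and the highest knockdown array for both genes. These calls therefore support nothing. Over the 4 shCD39 arrays ATF5 spanned 0.30 and TRIB3 0.78, while CTH spanned 2.22 and ASNS 1.74. The transcript of ATF4 itself, named after its values were seen, had -0.21 (SE 0.13, limma adjusted p = 0.506). Regulation of ATF4 is known as largely translational, which arrays do not measure, and any part of ATF4 here was not tested.

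**Figure D5:**
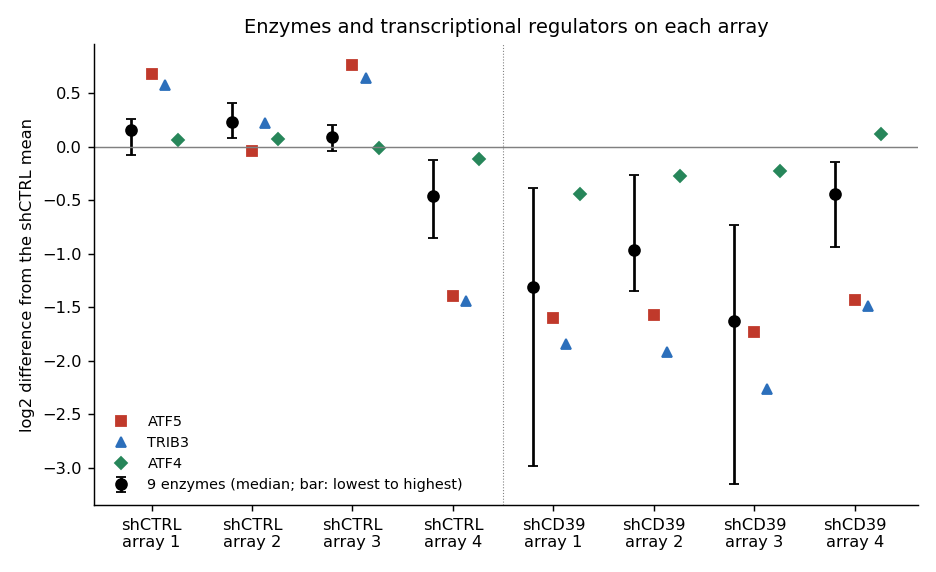
Log2 difference from the shCTRL mean on each array for the 9 enzymes (black, median with a bar from the lowest to the highest member) and for ATF5, TRIB3 and ATF4. ATF5 and TRIB3 are low on shCTRL array 4 and on all 4 shCD39 arrays, whereas the enzymes' median ranges from -1.63 to -0.44 over the shCD39 arrays.

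The genes most like the enzymes were sought among 1291 other genes that were above the median probe set and spanned at least 1 log2 unit. Over the 8 arrays, 39 of them had r of at least 0.95 with the mean profile of the members, a figure that includes the difference between the groups. That r also includes the deviations within groups, so the within-group r of genes picked by it is not independent of the choice. The closest were ULBP1, a surface ligand of an NK cell receptor (r = 0.99, and 0.98 after the group means were removed), TSEN15, a subunit of the tRNA splicing endonuclease (0.99 and 0.97), and PYROXD1, an oxidoreductase (0.99 and 0.97). MARS1 and GARS1, which charge tRNA with methionine and glycine, followed at 0.99 and 0.98 (0.96 and 0.95 within groups). KDM7A, a histone demethylase (0.99 and 0.97), NEMP2, a nuclear envelope protein (0.99 and 0.96), and KIF21B, a kinesin (0.98 and 0.95), completed the 8. ULBP1 had the largest difference of these at -2.58 (SE 0.56, limma adjusted p = 0.0888), with 6.11, 6.43, 6.55 and 4.70 in shCTRL and 2.60, 3.58, 2.21 and 5.11 in shCD39. Its groups overlapped at the arrays numbered 4, as those of ASNS and PCK2 did.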

How the data were processed

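The deposited table gives log2 expression, 1 row per probe set. The authors used RMA from oligo (no version named), per the submitters' processing notes; array model and genome build: not given in the sources used here. RMA sets all arrays to a shared distribution, so changes are relative to the bulk of probe sets. All 8 columns were used. Of 53617 probe sets, 16098 had a symbol (1 each) and 37519 are unnamed here; a gene took its probe set with the highest mean, giving 14884 genes, 779 of them with several probe sets. No filter on dim genes was applied.

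Groups were compared with limma 3.58.1 (lmFit, eBayes) in R 4.3.3, 2-sided, adjusted by Benjamini-Hochberg over all genes, threshold 0.05. Figures were drawn with matplotlib 3.10.9. The fit was tested on simulated data.

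The members, lists and tests were chosen with earlier results of these data known. Genes named are the members, their paralogs, ENTPD1, per list up to 4 genes past the threshold or otherwise the 2 with the largest change, and the 8 genes most correlated with the members. SHMT1, MTHFD2L and PYCR3 entered as paralogs. ATF4 and the myeloid markers LYZ, CSF1R, SPI1, FLT3, MEIS1 and MPO fall outside the rule. Alternatives were other normalizations, a filter on dim genes, probe set means, other variance models, a replicate block and left-out arrays.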

Additional observations from a re-analysis of the deposited data

Results flagged for a closer look

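In 33 named genes, each group of 4 arrays was searched for an array far from the other 3 (by Dixon's ratio); this marked 7 of 66 groups. Chance marks about 1 in 20 groups of independent genes, but these genes vary together and NEMP2 was chosen for its likeness to the enzymes, so the flags are not independent and their number is not read against that rate. shCTRL array 4 was low for CTH (6.23 against 7.29 to 7.50), CBS (5.41 against 6.09 to 6.17), PSPH (6.99 against 7.34 to 7.36) and NEMP2 (6.32 against 6.72 to 6.80). shCD39 array 4 was high for PCK2 (6.52 against 5.35 to 5.54) and MTHFD1L (8.19 against 7.57 to 7.67). MTHFD2L read 2.81 on shCD39 array 1, against 3.65 to 3.81 on the others.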

How the results depend on the processing

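All 9 enzymes kept a lower mean in shCD39 under every alternative run, and none of their fold changes moved by more than the spread between arrays; the median ran from -1.46 (both arrays numbered 4 left out) to -0.93 (without shCD39 array 3). Calls were less steady. Of all genes, 14 passed as deposited, 5 after quantile normalization, 24 with dim genes left out, 22 with an intensity trend and robust prior, 124 with array weights, 368 without both arrays numbered 4, and 6 of all probe sets; leaving out single arrays gave 0 to 423. Members past the threshold numbered 0 as deposited, 5 with array weights, 8 without both arrays numbered 4 and 0 to 8 without single arrays. Other pathway genes numbered 0, 6, 9 and 0 to 7 in the same order. The mean within-group correlation was 0.80 as deposited and 0.48 without both arrays numbered 4. The cause of these changes was not tested. With the replicate number as a block 6 genes passed, 0 of them members; the numbers did not pair the arrays (correlations of deviations from -0.04 to 0.06, and 1 of 4 arrays highest with its own number). The number of arrays limits the precision, and arrays labelled as technical replicates may leave out variation between cultures.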
